A study of Mus musculus with 11 samples.

Results

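The primary (azurophil) granule is the first granule that a neutrophil precursor builds, and 8 genes for its peroxidase, its serine proteases and their control were followed here. They were taken by mouse gene symbol: Mpo, Elane, Prtn3, Ctsg, Prss57, Ms4a3, Ctsc and Cst7. All 8 matched a single Ensembl identifier each among the 51912 genes of the count table, and all 8 were among the 15703 genes that passed the filter on low counts. RNA was measured in C57BL/6 mouse bone marrow cells, from donors aged 6 to 12 weeks, that carried retroviral oncogenes. Before culture, the cells had been sorted as lineage-negative (Lin−) and for both fluorescent reporters. The paper used its inducible vector, which every group carried, in cells of Rosa26 ERT2-Cre donors. In the CSF3R-only group (n = 4), the constitutive GFP vector carried CSF3R with the T618I mutation, an activated form of the receptor for granulocyte colony stimulating factor, and the inducible dsRed vector was empty. In the CSF3R-first group (n = 3), the GFP vector carried the same receptor and the dsRed vector carried CEBPA with the V314VW mutation in the C-terminal region of this myeloid transcription factor. In the CEBPA-first group (n = 4), the vectors were exchanged, so that mutant CEBPA was constitutive and mutant CSF3R inducible. All cells were cultured for 48 h with 4-hydroxytamoxifen and without added cytokines, which switches on the inducible vector through a Cre recombinase fused to the estrogen receptor, so every group had mutant CSF3R by the end and a group without an oncogene was not analysed here. The oncogenes are human and driven by viral vectors, and cells were selected as reporter-positive populations rather than as single clones. Nothing in the labels says that replicates came from separate animals, so p-values measure the spread between these samples, which may be technical.

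Neutrophil granules form in waves. Primary granules are filled at the promyelocyte stage, when Mpo, Elane, Prtn3, Ctsg and Prss57 are transcribed; the genes of secondary and tertiary granules follow later, when transcription of the primary set has ended. The serine proteases are made as inactive precursors, and cathepsin C (Ctsc) removes a dipeptide from their amino terminus to activate them. Cystatin F (Cst7) is a natural inhibitor of cathepsin C. CEBPA, PU.1, MYB and RUNX proteins are the transcription factors best known for acting on these promoters.

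The promoters are shown here because the peroxidase and protease genes moved together between groups whereas Cst7 moved the other way. Those of Ctsc, which also moved the other way, and of Ms4a3 are described but not printed. Sequences are those of RefSeq on GRCm38.p6, from 250 bases before to 50 bases after the annotated start. The promoter set used here held 7 of the 8 members, without an entry for Prss57. Capitals mark the letters GAGGAA (PU.1), CAACNG or TAACNG (MYB) and TTGCNNAA (C/EBP), searched on both strands. The windows are chr11:87793534-87793833 for Mpo, chr10:79886062-79886361 for Elane and chr10:79879417-79879716 for Prtn3, on the plus strand, chr14:56102525-56102824 for Ctsg, on the minus strand, and chr2:150570165-150570464 for Cst7, on the plus strand.
Mpo: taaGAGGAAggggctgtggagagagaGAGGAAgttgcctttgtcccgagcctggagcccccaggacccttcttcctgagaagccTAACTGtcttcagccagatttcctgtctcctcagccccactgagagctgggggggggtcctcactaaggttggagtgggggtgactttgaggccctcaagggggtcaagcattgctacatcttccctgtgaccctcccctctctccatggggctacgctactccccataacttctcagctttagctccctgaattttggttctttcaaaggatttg
Elane: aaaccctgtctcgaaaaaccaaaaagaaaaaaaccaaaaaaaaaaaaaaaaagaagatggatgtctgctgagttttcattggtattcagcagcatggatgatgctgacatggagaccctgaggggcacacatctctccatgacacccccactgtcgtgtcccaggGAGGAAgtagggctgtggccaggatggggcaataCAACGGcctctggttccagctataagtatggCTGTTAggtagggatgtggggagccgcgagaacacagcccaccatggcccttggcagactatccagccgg
Prtn3: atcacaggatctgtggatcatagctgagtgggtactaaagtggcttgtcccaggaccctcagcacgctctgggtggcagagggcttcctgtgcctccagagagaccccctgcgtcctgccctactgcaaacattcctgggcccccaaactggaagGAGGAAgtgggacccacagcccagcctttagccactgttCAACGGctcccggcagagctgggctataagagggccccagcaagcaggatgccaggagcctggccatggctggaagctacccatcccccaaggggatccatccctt
Ctsg: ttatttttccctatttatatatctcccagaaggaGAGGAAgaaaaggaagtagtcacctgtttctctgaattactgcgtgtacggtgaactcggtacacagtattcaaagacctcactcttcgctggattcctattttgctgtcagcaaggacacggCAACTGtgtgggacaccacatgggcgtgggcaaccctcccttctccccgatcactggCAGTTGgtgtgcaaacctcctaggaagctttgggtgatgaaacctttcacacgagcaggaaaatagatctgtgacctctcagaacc
Cst7: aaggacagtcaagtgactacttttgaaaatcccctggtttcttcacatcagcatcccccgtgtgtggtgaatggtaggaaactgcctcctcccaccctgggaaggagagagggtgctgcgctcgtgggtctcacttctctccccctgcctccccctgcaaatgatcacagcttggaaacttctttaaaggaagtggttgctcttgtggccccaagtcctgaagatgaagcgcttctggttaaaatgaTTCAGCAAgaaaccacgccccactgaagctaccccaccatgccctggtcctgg

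Each of the 4 promoters of Mpo, Elane, Prtn3 and Ctsg held both the PU.1 and the MYB letters, which occur together in 13.8% of 32851 RefSeq promoters of this length. These 4 were picked by how their genes moved in these data, so the share beside them is a description and not a test. In Elane and Prtn3, neighbouring genes for related proteases, the same 6 letters CAACGG lay at positions -51 to -46 and -56 to -51, counted with the RefSeq start of each gene as 1, and GAGGAA lay at -85 to -80 and -95 to -90. None of these 4 windows held the C/EBP letters, and that of Cst7 held them across its start, from -3 to 5, without the PU.1 or MYB letters. Only TTGCNNAA was searched for C/EBP, so windows without it may hold C/EBP sites of other letters. Ms4a3, which rose against CSF3R-only, had the C/EBP letters from 42 to 49 directly after GAGGAA, without the MYB letters. Ctsc, which fell, had TTCCTC, the reverse complement of GAGGAA, at 2 places, without the MYB or C/EBP letters. Over the 7 promoters, the PU.1 letters were present in 6, the MYB letters in 4, the C/EBP letters in 2 and the RUNX letters (TGTGGT or TGCGGT) in 2, against 28.3%, 49.7%, 10.8% and 22.4% of all promoters. The gene models of GENCODE M21 start at the same base as RefSeq for Ctsg, Ms4a3, Ctsc and Cst7, but 203 bases upstream for Mpo, 65 for Elane and 5191 for Prtn3. These matches describe letters in a short window, and binding was not measured in these samples.

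Total counts per sample ranged from 47905747 to 72268346, and values are given as CPM (counts scaled to a common library size) after TMM scaling, which also corrects for composition. A member is said to have risen or fallen when edgeR's quasi-likelihood test gave an adjusted p below 0.05, and to be called when it also changed at least 2-fold. Where 3 values follow each other without group names, they are those of CSF3R-only, then CSF3R-first, then CEBPA-first. Together, Mpo and the 4 serine protease genes took up 0.239% to 0.291%, 0.455% to 0.527% and 0.632% to 0.699% of a sample's counts, so the groups did not overlap. In these bulk samples, fewer cells of a type and less RNA per cell cannot be told apart.

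**Figure D1:**
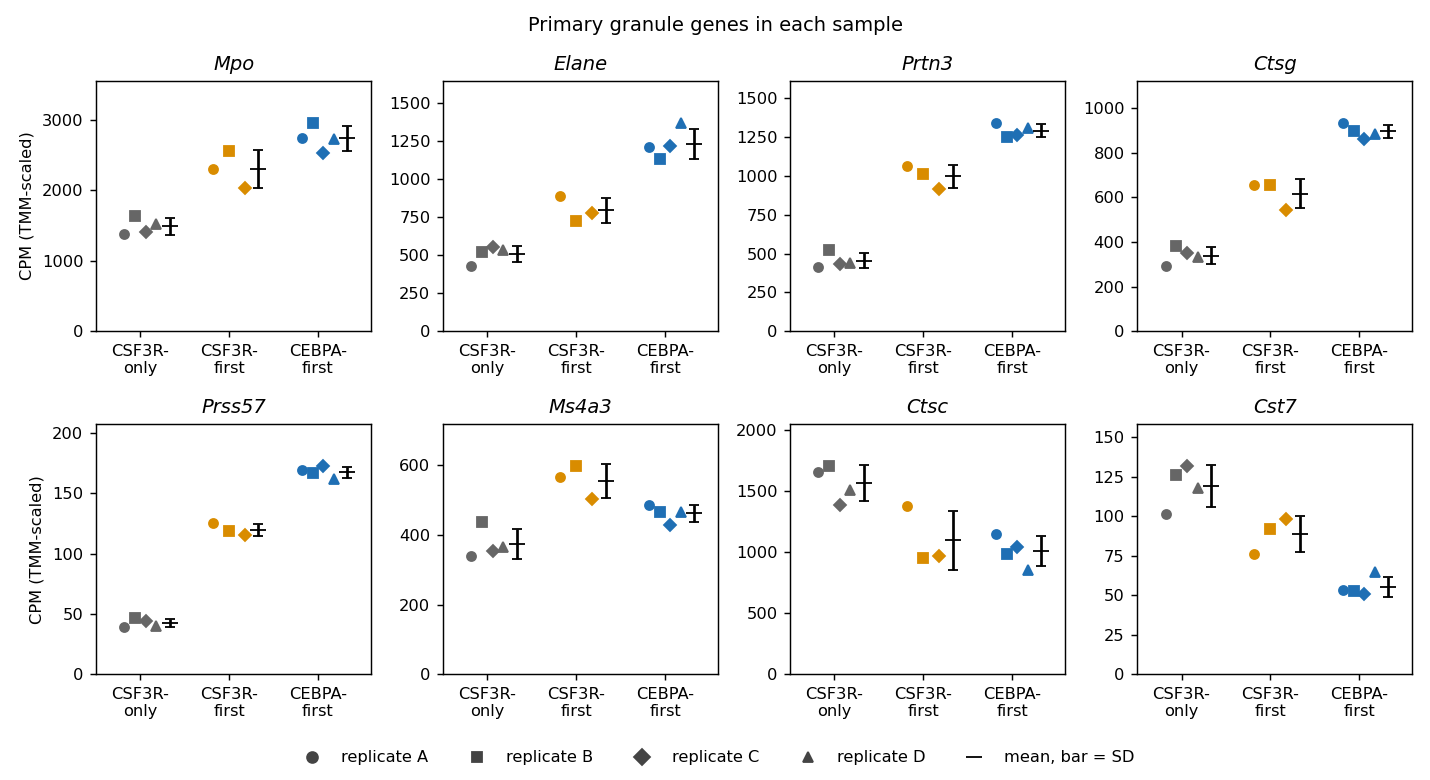
Level of each primary granule gene in every sample (TMM-scaled CPM, vertical axes from 0), by group; symbols give the replicate, and the bar to their right the mean and SD. Mpo and the 4 serine proteases step up from CSF3R-only to CEBPA-first, Ms4a3 is highest in CSF3R-first, and Ctsc and Cst7 are highest in CSF3R-only.

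Mpo, the haem peroxidase that makes hypochlorous acid, was at 1382, 1633, 1404 and 1522 CPM in CSF3R-only replicates A to D. It was at 2307, 2561 and 2036 CPM in CSF3R-first and at 2742, 2957, 2527 and 2722 CPM in CEBPA-first. Both groups with mutant CEBPA lay above every CSF3R-only sample, while CSF3R-first replicate B reached into the CEBPA-first range. Mean Mpo was 1485 ± 116 (SD, n = 4), 2301 ± 263 (n = 3) and 2737 ± 176 (n = 4) CPM. Mpo rose in CEBPA-first against CSF3R-only (log2 fold change 0.88, SE 0.09, edgeR adjusted p = 1.5e-06) and in CSF3R-first against CSF3R-only (0.63, SE 0.09, adjusted p = 0.00034). Between CEBPA-first and CSF3R-first the difference was 0.25 (SE 0.10, adjusted p = 0.045). Its edgeR adjusted p was no longer below 0.05 when only those groups were fitted (adjusted p = 0.095). Nor was it without CSF3R-only replicate C or D, or without CSF3R-first replicate A or C. The same held without CEBPA-first replicate A, B or D, and over these samples left out the adjusted p ranged from 0.055 to 0.20. Without CSF3R-first replicate C the difference itself dropped to 0.16.

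Elane encodes neutrophil elastase, the protease mutated in severe congenital and cyclic neutropenia. It stood at 432, 524, 552 and 531 CPM in CSF3R-only, at 887, 725 and 779 CPM in CSF3R-first and at 1209, 1130, 1220 and 1372 CPM in CEBPA-first. The 3 groups were separate, with CSF3R-first in the middle. Elane rose by 1.27 (log2, SE 0.10, edgeR adjusted p = 1.2e-07) in CEBPA-first and by 0.64 (SE 0.10, adjusted p = 0.00043) in CSF3R-first against CSF3R-only. The step from CSF3R-first to CEBPA-first was 0.63 (SE 0.10, adjusted p = 0.00039).

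Prtn3 encodes proteinase 3, an elastase-like protease and the best known target of the autoantibodies of granulomatosis with polyangiitis. Its levels were 414, 523, 436 and 441 CPM in CSF3R-only, 1062, 1015 and 916 CPM in CSF3R-first and 1343, 1251, 1262 and 1311 CPM in CEBPA-first. Again no sample of a group reached another group. In CEBPA-first, Prtn3 was 2.85-fold above CSF3R-only (log2 fold change 1.51, SE 0.08, edgeR adjusted p = 7.6e-09). In CSF3R-first it was 2.20-fold above CSF3R-only (1.14, SE 0.09, adjusted p = 1.9e-06). CEBPA-first exceeded CSF3R-first by 0.37 (SE 0.09, adjusted p = 0.0039).

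Ctsg, for the chymotrypsin-like cathepsin G, had 291, 381, 350 and 333 CPM in the CSF3R-only samples. Those of CSF3R-first had 654, 656 and 543 CPM, and CEBPA-first samples had 935, 899, 863 and 886 CPM. These ranges did not overlap, and the coefficient of variation of the CEBPA-first samples was 3.36%. Ctsg rose by 1.40 (log2, SE 0.09, edgeR adjusted p = 3.1e-08) in CEBPA-first and by 0.87 (SE 0.09, adjusted p = 3.8e-05) in CSF3R-first against CSF3R-only, and CEBPA-first was 0.54 (SE 0.10, adjusted p = 0.00074) above CSF3R-first.

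Prss57 encodes neutrophil serine protease 4, which cleaves after arginine. CSF3R-only samples had 39.4, 46.7, 43.9 and 40.4 CPM, CSF3R-first samples 125, 119 and 115 CPM, and CEBPA-first samples 169, 167, 173 and 162 CPM. Prss57 thus had the largest fold change of the 8 members in each comparison with CSF3R-only: 3.93-fold in CEBPA-first (log2 1.98, SE 0.06, edgeR adjusted p = 1.8e-10) and 2.81-fold in CSF3R-first (1.49, SE 0.07, adjusted p = 2e-08). The CEBPA-first samples exceeded the CSF3R-first samples by 0.49 (SE 0.07, adjusted p = 0.00011). Exons of Prss57 overlap those of the antisense gene Fstl3 over 40.7% of their length. Whether the counting used strand is not given in the sources used here, so reads there cannot be assigned to a gene with certainty; Fstl3 itself was at 0.831, 0.849 and 0.757 CPM.

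Ms4a3 encodes a membrane protein with 4 membrane spans that marks granulocyte-monocyte progenitors. Its levels were 341, 438, 353 and 367 CPM in CSF3R-only, 567, 599 and 503 CPM in CSF3R-first, and 487, 467, 428 and 466 CPM in CEBPA-first. Unlike the peroxidase and the proteases, Ms4a3 was highest in CSF3R-first, whose samples all lay above both other groups, and CSF3R-only replicate B lay within the CEBPA-first range. Against CSF3R-only, Ms4a3 rose by 0.57 (log2, SE 0.09, edgeR adjusted p = 0.00057) in CSF3R-first and by 0.30 (SE 0.09, adjusted p = 0.0066) in CEBPA-first. CEBPA-first was below CSF3R-first by -0.27 (SE 0.09, adjusted p = 0.031). This last adjusted p was no longer below 0.05 without CEBPA-first replicate B or C or CSF3R-first replicate A or B (from 0.056 to 0.12).

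Ctsc, whose product activates the serine proteases, went the other way. It was at 1660, 1708, 1390 and 1513 CPM in CSF3R-only, at 1379, 955 and 967 CPM in CSF3R-first and at 1154, 990, 1043 and 852 CPM in CEBPA-first. CSF3R-first replicate A stood close to the lowest CSF3R-only sample, whereas replicates B and C lay among the CEBPA-first samples. Ctsc fell by 0.63 on the log2 scale (SE 0.13, edgeR adjusted p = 0.00056) in CEBPA-first against CSF3R-only and fell by 0.51 (SE 0.14, adjusted p = 0.01) in CSF3R-first against CSF3R-only. The latter was no longer past the threshold without CSF3R-first replicate B (-0.42, adjusted p = 0.057) or C (-0.41, adjusted p = 0.054). Between CEBPA-first and CSF3R-first no difference was detected (-0.12, 95% confidence interval -0.42 to 0.17, adjusted p = 0.48), and the sign turned without CSF3R-first replicate A (0.08, adjusted p = 0.63).

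Cst7, for the cystatin that inhibits cathepsin C, was at 101, 126, 132 and 118 CPM in CSF3R-only. It was at 76.1, 91.7 and 98.5 CPM in CSF3R-first and at 53.2, 53.0, 50.9 and 65.0 CPM in CEBPA-first. The 3 groups were separate and in the reverse order of the proteases. Against CSF3R-only, Cst7 in CEBPA-first was 2.15-fold lower (log2 fold change -1.10, SE 0.11, edgeR adjusted p = 9.7e-07). It fell by 0.43 (SE 0.11, adjusted p = 0.0095) in CSF3R-first against CSF3R-only, and CEBPA-first was lower than CSF3R-first (-0.68, SE 0.11, adjusted p = 0.00045).

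Counted over the 8 members, CEBPA-first against CSF3R-only had 6 that rose and 2 that fell, where 35.4% of all genes tested rose and 36.6% fell. Past the 2-fold threshold, 4 members were called higher (Elane, Prtn3, Ctsg and Prss57) and 1 lower (Cst7), against 8.07% and 19.0% of all genes. No overlap between the samples was seen for 5 higher and 2 lower members, against 34.2% and 34.5%. In CSF3R-first against CSF3R-only, 6 members rose and 2 fell, against 21.6% and 21.1% of all genes, and 2 were called higher (Prtn3 and Prss57) and 0 lower, against 2.13% and 4.53%. There, 6 members were higher and 2 lower without overlap, against 20.7% and 21.4%. In CEBPA-first against CSF3R-first, 5 rose and 2 fell, against 24.0% and 24.3%, and no member reached 2-fold with edgeR in either direction, against 2.57% and 10.3%; DESeq2 also called 0, and 7 had an unadjusted p below 0.05. Without overlap were 4 higher and 2 lower members, against 27.4% and 24.8%. The median log2 fold change of the members was 1.08, 0.64 and 0.31 in these comparisons, beside -0.00, -0.02 and 0.00 over all genes tested. The first and the second comparison share the CSF3R-only samples, so their values are not independent of each other.

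**Figure D2:**
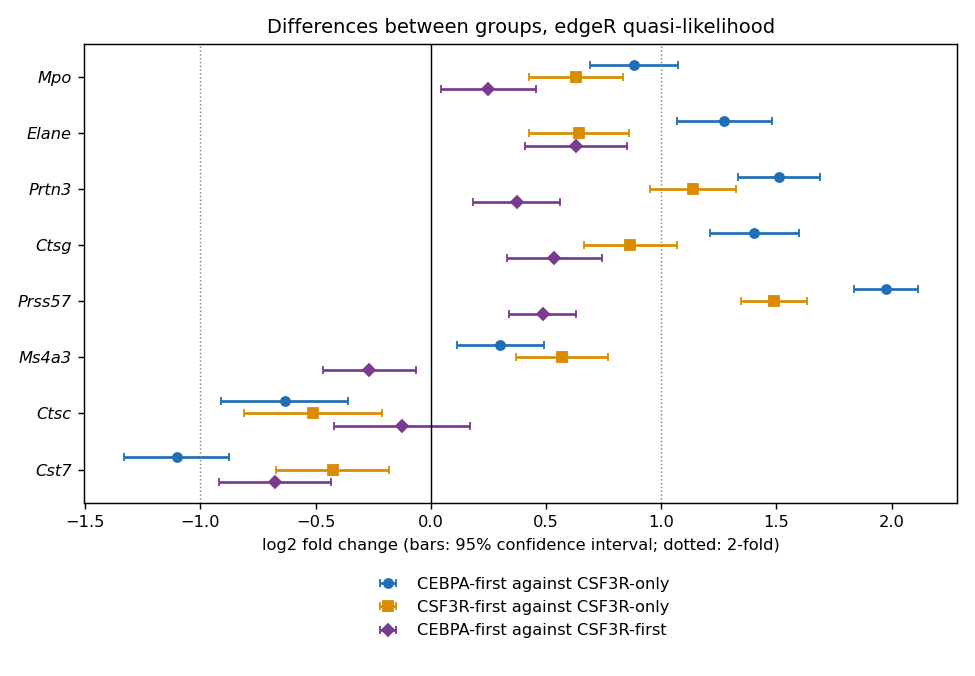
Log2 fold change of each member in the 3 comparisons (edgeR quasi-likelihood; bars are 95% confidence intervals, dotted lines mark 2-fold). Prss57 lies farthest to the right against CSF3R-only (1.98 and 1.49), Cst7 and Ctsc lie to the left of 0, and Ms4a3 is the member whose CSF3R-first change exceeds its CEBPA-first change.

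Levels of different genes can be compared only per length. Divided by the length of all annotated exons, Elane had the highest level in every group, at 518 ± 54.0 (SD, n = 4), 810 ± 83.6 (n = 3) and 1253 ± 103 (n = 4) CPM per kilobase. In CEBPA-first it was followed by Ctsg (867 ± 29.1), Mpo (799 ± 51.4) and Prtn3 (746 ± 24.8), of which Ctsg and Mpo overlapped in their samples, as did Mpo and Prtn3. Ms4a3 (245 ± 13.2) and Ctsc (174 ± 21.6) came next, and Prss57 (58.9 ± 1.63) and Cst7 (56.3 ± 6.49) were lowest and overlapped. In CSF3R-only the order was Elane, Mpo (434 ± 34.0), Ctsg (328 ± 36.3), Ctsc (270 ± 24.9), Prtn3 (262 ± 27.5), Ms4a3 (199 ± 23.1), Cst7 (121 ± 13.5) and Prss57 (15.0 ± 1.18), with overlap between Elane and Mpo and between Ctsg, Ctsc and Prtn3. So Cst7 was above Prss57 per kilobase in CSF3R-only, without overlap, and level with it in CEBPA-first. In CSF3R-first, Mpo (672 ± 76.8) came second after Elane and overlapped with it in its samples. The order among the abundant members depends on the length used. Prtn3 has 1732 bases over all exons and 1025 in its longest coding transcript, and Mpo has 3424 and 2750, whereas Elane has 984 by either measure. With the longest coding transcript, Elane was not first in any group. Prtn3 then had 1260 ± 41.8 and Elane 1253 ± 103 CPM per kilobase in CEBPA-first. In CSF3R-first, Prtn3 (974 ± 72.8) and Mpo (837 ± 95.6) stood above Elane (810 ± 83.6), and in CSF3R-only Mpo did (540 ± 42.3 against 518 ± 54.0). In each of these cases the samples overlapped with those of Elane.

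A ratio of members within a library needs no scaling between libraries, and it shows whether the others moved by the same factor as Mpo. For each 100 counts of Mpo there were 34.4 ± 3.62 (SD, n = 4), 35.0 ± 5.80 (n = 3) and 45.3 ± 5.38 (n = 4) counts of Elane. Their log2 ratio differed by 0.39 between CEBPA-first and CSF3R-only, which did not pass (two-sided exact permutation test, p = 0.0571, adjusted over 21 ratios p = 0.08). Nor did it pass between CSF3R-first and CSF3R-only (0.02, exact p = 1) or between CEBPA-first and CSF3R-first (0.38, exact p = 0.114). Counts of Prtn3 per 100 of Mpo were 30.5 ± 1.30, 43.6 ± 3.44 and 47.3 ± 3.43, so Prtn3 gained on Mpo by 0.63 in CEBPA-first and by 0.51 in CSF3R-first against CSF3R-only (exact p = 0.0286 each). Counts of Ctsg went from 22.8 ± 1.71 through 26.9 ± 1.39 to 32.8 ± 1.76 and those of Prss57 from 2.87 ± 0.194 through 5.24 ± 0.542 to 6.15 ± 0.511. For both, CEBPA-first exceeded CSF3R-only (log2 differences 0.53 and 1.10, exact p = 0.0286 each). Of the ratios of Prtn3, Ctsg and Prss57 to Mpo, those that did not pass were that of Ctsg between CSF3R-first and CSF3R-only (0.24, exact p = 0.0571) and those of Prtn3 (0.12, exact p = 0.257) and Prss57 (0.23, exact p = 0.0857) between CEBPA-first and CSF3R-first.

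Ms4a3 and the cathepsin C pair lost ground to Mpo. Ms4a3 was at 25.2 ± 1.17 and 24.2 ± 0.738 counts per 100 of Mpo in CSF3R-only and CSF3R-first (exact p = 0.371) and at 16.9 ± 0.818 in CEBPA-first (log2 difference from CSF3R-first -0.52, exact p = 0.0286). Ctsc had 106 ± 9.89, 48.2 ± 11.3 and 37.0 ± 5.45 counts for each 100 of Mpo, and the difference between CEBPA-first and CSF3R-first did not pass (log2 -0.37, exact p = 0.171). Cst7 went from 8.05 ± 0.919 through 3.91 ± 0.819 to 2.03 ± 0.254, a log2 difference of -1.99 between CEBPA-first and CSF3R-only (exact p = 0.0286). Of the 21 ratios, 13 gave an exact p = 0.0286, the smallest that 4 against 4 or 4 against 3 samples allow, with an adjusted p of 0.0462. When any 1 sample was left out, these 13 ratios kept their direction, at 0.823 to 1.16 times the log2 difference with all samples, and 0 passed after adjustment. The smallest adjusted p that the smaller groups allow is 0.0667 without a CSF3R-first sample and 0.0429 without a sample of another group.

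**Figure D3:**
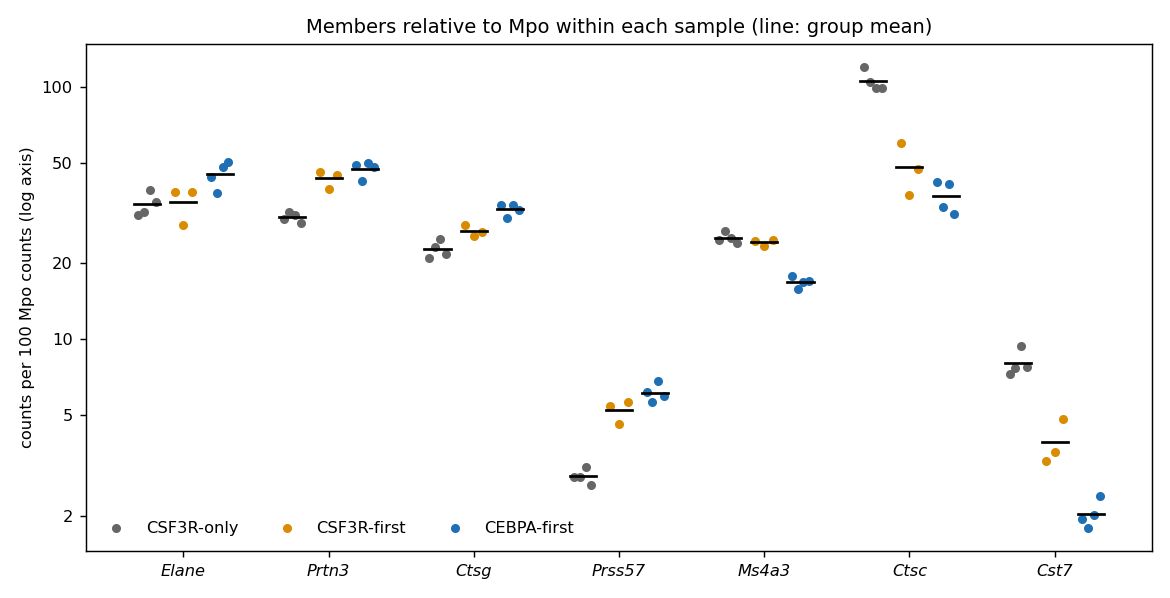
Counts of each member per 100 counts of Mpo in the same sample (log axis; points are samples, lines are group means). Prtn3, Ctsg and Prss57 increase relative to Mpo, Elane is at 34.4, 35.0 and 45.3, and Ctsc and Cst7 fall from 106 and 8.05 in CSF3R-only to 37.0 and 2.03 in CEBPA-first.

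Genes that serve the same granule were compared next, mainly in CEBPA-first against CSF3R-only, where the background shares given above apply. The chaperones that fold the myeloperoxidase precursor in the endoplasmic reticulum rose with Mpo: all 4 rose in CEBPA-first, by 0.59 for Calr (calreticulin), 0.63 for Canx (calnexin), 0.39 for Pdia3 and 0.79 for Hspa5 (BiP), with a list median of 0.61 against -0.00 over all genes. All 4 also rose in CSF3R-first against CSF3R-only (0.31, 0.32, 0.23 and 0.45), and none reached 2-fold in either comparison. Genes for activating and packing the proteases did not follow. Of 9 tested, 8 fell in CEBPA-first, 2 of them called: Ctss, for cathepsin S, at -1.54, and Lyst, the gene of Chediak-Higashi syndrome with its giant granules, at -1.44. Srgn, for serglycin, the proteoglycan that holds elastase in the granule, fell by 0.56, and Rab27a, a GTPase of granule release, was at 0.16 (adjusted p = 0.06). The list median was -0.56.

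Among inhibitors of the granule proteases, 7 of 10 were tested, and 1 rose and 5 fell. Serpinb1a, the cytosolic inhibitor of elastase, cathepsin G and proteinase 3, was at 773, 1001 and 896 CPM and rose in both comparisons with CSF3R-only (0.37 in CSF3R-first, 0.21 in CEBPA-first). Slpi, a secreted inhibitor of elastase and cathepsin G, was highest in CSF3R-first, at 405 CPM against 273 in CSF3R-only and 220 in CEBPA-first. It rose by 0.57 in CSF3R-first and fell by 0.31 in CEBPA-first against CSF3R-only. Cstb, for cystatin B, a cytosolic inhibitor of cathepsins, was the called member of this list (-1.32). Like Ctsc, the other papain-like cathepsins were lower: 6 of 7 fell in CEBPA-first and 5 were called, among them Ctsb (-1.86) and Ctsh (-1.27).

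Other contents of primary granules and lysosomes also went against Mpo. Of 8 tested genes, 7 fell and 5 were called, with a list median of -1.27. Lyz2, for lysozyme, was at 17215, 8129 and 2316 CPM (log2 fold change -2.89). Ctsd, for cathepsin D, and Cd68 had log2 fold changes of -1.87 each, and Fuca1, a lysosomal fucosidase, had -1.38. Only Gusb, for beta-glucuronidase, rose in this list (0.37). Genes of the later granules had a list median of -2.86: 10 of 11 fell and 9 were called in CEBPA-first, with Ltf (lactoferrin) at -5.65, Mmp9 (gelatinase) at -5.59, Camp (cathelicidin) at -5.08 and Ngp at -5.05. In CSF3R-first against CSF3R-only, 9 fell and 8 were called in that list. Chil3, a chitinase-like protein of myeloid cells, was the exception, at 2.26 in CEBPA-first and 2.58 in CSF3R-first.

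**Figure D4:**
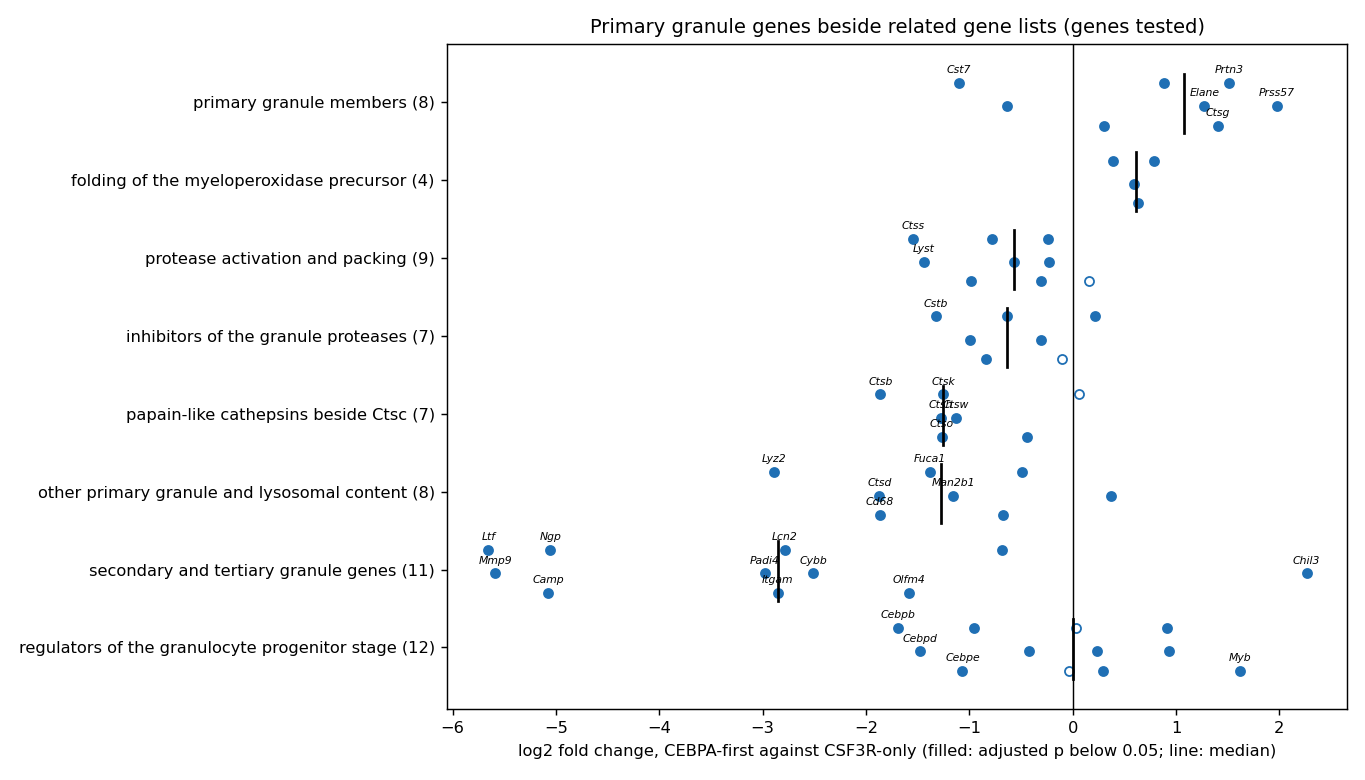
Log2 fold change in CEBPA-first against CSF3R-only for the primary granule members and for 7 lists of related genes (numbers of genes tested in parentheses; filled points passed adjusted p below 0.05, black lines are list medians, names mark changes of at least 2-fold). The members and the chaperones have medians of 1.08 and 0.61, and the later granule genes lie at the far left with a median of -2.86.

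The list of transcriptional regulators had 12 tested genes, of which 5 rose and 5 fell in CEBPA-first against CSF3R-only. Myb, a regulator of Mpo and Elane in immature myeloid cells, was the gene called higher (1.62), and Gfi1, which is required for granulocyte development, rose by 0.91. The called fall was in Cebpb (-1.69), Cebpd (-1.48) and Cebpe (-1.07); Cebpe drives the secondary granule genes. Spi1, for PU.1, was at -0.96. Cebpa was at 87.2, 131 and 167 CPM, but reads of the human transgene may be counted in part on this gene, so it does not check the labels.

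Markers of other cells in the culture moved between the same groups. Of the monocyte and macrophage markers, 8 of 10 fell at least 2-fold in CEBPA-first against CSF3R-only and the other 2 rose (Fcgr1 by 0.65 and Ly6c2 by 0.32 on the log2 scale), and the summed level of the list was 2570 to 3299, 1469 to 2502 and 855 to 1184 CPM. All 5 megakaryocyte markers, Pf4 (-3.50), Itga2b (-1.80), Gp9 (-4.93), Gp1bb (-4.76) and Ppbp (-5.08), fell (811 to 1104, 320 to 489 and 110 to 152 CPM summed), as did 5 of 7 eosinophil markers (248 to 377, 60.8 to 141 and 30.5 to 38.8) and 5 of 6 erythroid markers (156 to 221, 66.7 to 208 and 20.1 to 30.7). Of 8 mast cell and basophil markers, 4 fell and 1 rose (1679 to 2610, 1079 to 1334 and 1229 to 1661 CPM summed). In the list of 7 stem and progenitor markers, 5 rose and 2 fell (109 to 144, 63.9 to 105 and 85.3 to 104 CPM summed). Of the 9 T and NK cell markers, Cd3e, Cd8a and Ncr1 had no count in any sample, and summed levels were 76.5 to 135, 44.4 to 73.5 and 43.8 to 59.5 CPM. Nkg7 made up most of this sum (means of 109, 57.6 and 48.8 CPM), while Klrb1c rose (log2 fold change 3.09) at levels below 1 CPM. The 7 B cell markers summed to 3.71 to 4.55, 3.40 to 4.36 and 5.91 to 6.98 CPM. The part of these shifts in the levels of the primary granule genes was not tested.

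Several members sit among gene relatives, which allows their neighbours to be compared (gene positions from GENCODE M21, GRCm38). Ctsg (chr14:56099881-56102574, minus strand) lies within the granzyme and mast cell protease cluster. Ctsg rose by 1.40 in CEBPA-first against CSF3R-only, where 19.0% of all genes tested were called lower. Of its 12 protein-coding neighbours within 150000 bases, 5 were tested, and all 5 were called lower. These were Mcpt1 (-2.77), Mcpt2 (-3.54), Mcpt4 (-3.77), Mcpt8 (-2.20) and Gzmc (-5.17). Mcpt8, a basophil protease whose gene ends 14608 bases from Ctsg, was at 769 ± 163 (SD, n = 4), 333 ± 37.0 (n = 3) and 167 ± 20.3 (n = 4) CPM. Farther off in the same cluster, Gzmb, for granzyme B, did not pass the test (0.18, adjusted p = 0.52), with means of 363, 221 and 410 CPM, and Cma1, a mast cell chymase, was called lower (-2.15). Ctsg and Mcpt8 thus changed in opposite directions between the same samples.

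Prss57 (chr10:79781474-79790961, minus strand), Prtn3 (chr10:79874476-79883174, plus strand) and Elane (chr10:79886247-79888215, plus strand) share a stretch of chromosome 10. Of the 18 tested protein-coding genes within 150000 bases of Elane, 4 were called higher and 2 lower in CEBPA-first against CSF3R-only. Over all genes tested, 8.07% were called higher and 19.0% lower. Called higher were Prtn3 and Prss57, themselves members, and Plppr3 (1.43) and Wdr18 (1.06). Called lower were Kiss1r (-1.72) and Cnn2 (-1.41), both on the far side of Elane from Prtn3, where Wdr18 lies between them. Plppr3, best known from neurons, was at 83.7 ± 2.47, 183 ± 12.1 and 225 ± 2.77 CPM (SD), and its exons overlap those of Prtn3 on the opposite strand over 159 bases. Med16, next to Elane beyond Cfd, was at 0.07 (adjusted p = 0.21), and Cfd, for complement factor D, had too few counts to be tested.

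**Figure D5:**
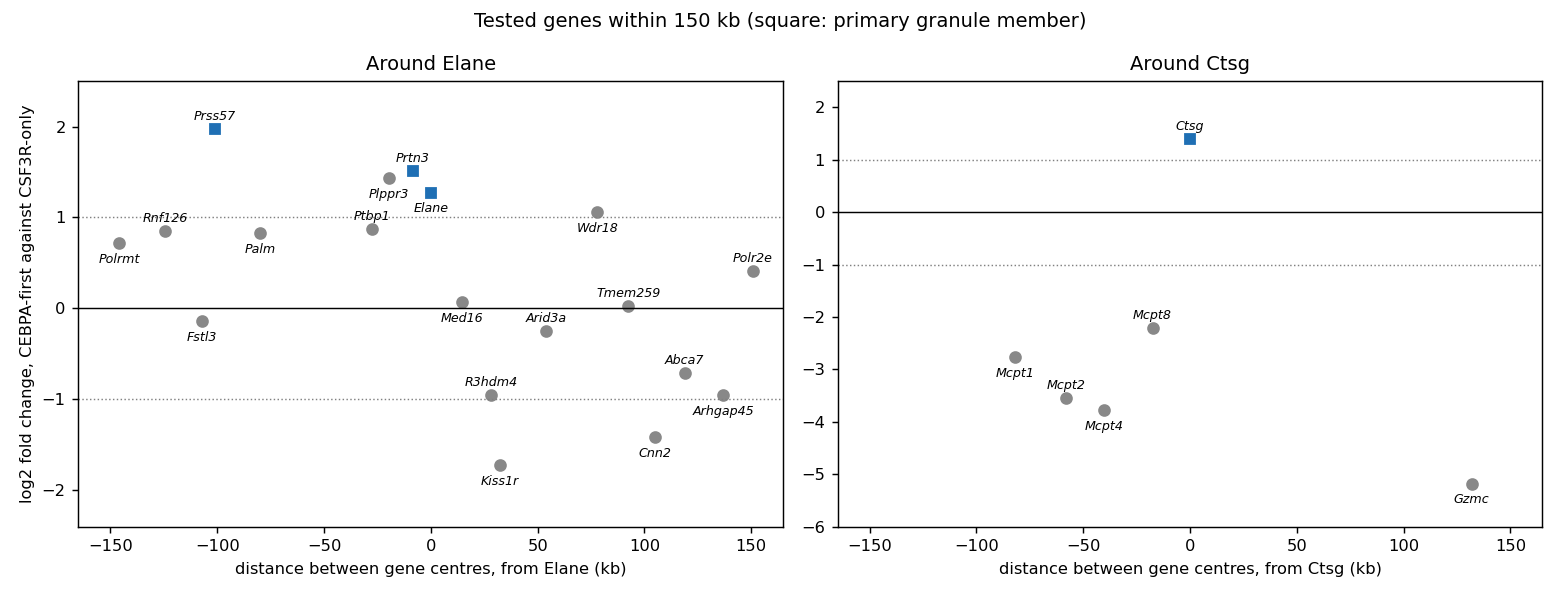
Log2 fold change in CEBPA-first against CSF3R-only of tested protein-coding genes within 150000 bases of Elane (left) and Ctsg (right), against the distance between gene centres in kilobases; squares are primary granule members, dotted lines mark 2-fold. Ctsg (1.40) is the only gene above 0 in its panel, whereas both directions occur around Elane.

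Mpo (chr11:87793581-87804413, plus strand) lies beside genes of other haem peroxidases. Epx, the eosinophil peroxidase, 59587 bases away, was at 5.91, 1.32 and 0.395 CPM and was called lower in CEBPA-first (-3.92), and Lpo, for lactoperoxidase, 2015 bases away, had too few counts to be tested. Of the other listed neighbours of Mpo, Rnf43 rose by 0.68, Supt4a fell by 0.26 and Tspoap1 was at 0.28 (adjusted p = 0.11). Mks1, outside that list and 48802 bases away, rose by 0.76 (edgeR adjusted p = 3.3e-05). Ms4a3 (chr19:11629496-11640851, minus strand) belongs to a family cluster. Of 9 tested relatives, 8 fell in CEBPA-first against CSF3R-only and 5 were called, against 36.6% and 19.0% of all genes tested. The largest falls were in Ms4a4a (-3.17) and Ms4a7 (-2.15), both of macrophages. Ms4a2, the beta chain of the IgE receptor and the nearest relative at 5777 bases, was at 0.44 (adjusted p = 0.065). No protein-coding gene was called near Ctsc (chr7:88278085-88310888, plus strand) or Cst7 (chr2:150570415-150578944, plus strand), where 1 and 3 such neighbours were tested. Gm26522, a long non-coding RNA gene within the span of Ctsc on the opposite strand, with no shared exon bases, was called lower (-1.12, adjusted p = 0.0015). Transcripts of 6 members had no stretch of 100 bases at 97% identity in another gene; the matches of Mpo and Prss57 were their antisense genes Gm11505 and Fstl3.

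For each member, the genes with the most similar pattern over the 11 samples were taken from 5917 genes whose average log2 CPM was 5 or more. The correlation is of log2 CPM and mostly reflects the 3 group means, so it is a description. Mpo was closest to BC035044 (r = 0.992), Racgap1 and Cdc45, the last a factor for starting DNA replication. Prtn3 and Prss57 shared Plpp5 and Mrpl19 as their closest genes (r with Plpp5 was 0.997 and 0.999), and Ctsg was closest to Slc10a7, Tuba1b and Prdx6. Elane was closest to Rabggta, Bckdk and Mfsd10. Ms4a3 stood apart, with lower best values for Pdzd11, Plac8 and Ap3s1 (r = 0.944, 0.942 and 0.938). Ctsc was closest to Akr1a1, Vim and Tifa, and Cst7 to Ptger3, Serpina3g and Mef2c. Among the members themselves, r was 0.920 to 0.996 between Mpo, Elane, Prtn3, Ctsg and Prss57 and 0.620 between Ctsc and Cst7.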

How the data were processed

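RNA-seq counts of the 11 samples were analysed; other experiments of the study were not used here. Per the labels and the study's methods, RNA was amplified with the SMARTer low input kit, reads were trimmed with Trimmomatic and aligned with STAR to mm10, and the authors deposited raw counts, whole numbers for each gene with no scaling. The counting tool, annotation and strand setting are not given in the sources used here. The submitters' notes also name DESeq2.

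Counts were tested with edgeR 4.0.16 in R 4.3.3 by the quasi-likelihood test, with TMM scaling, filterByExpr (15703 of 51912 genes kept), 1 fit of the 3 groups without covariates, and Benjamini-Hochberg adjustment over all genes tested. DESeq2, the tool of the study's methods, was run as version 1.42.0 as an alternative, beside other scalings and filters, fits of only the compared groups, a replicate block and leaving out each sample. The test was checked on simulated counts. Log2 CPM used a prior count of 2. Ratios within a sample were compared by two-sided exact permutation tests, adjusted over 21 ratios. Gene models came from GENCODE M21, and transcripts were compared with BLAST 2.17.0. All 8 members are named, with up to 4 of the called genes with the largest change in each list and every gene of lists of 5 or fewer, the 3 most similar genes of each member and genes next to members. The members and lists were chosen with earlier results of these data known. Vamp7 and Azu2 matched no symbol in the table.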

Additional observations from a re-analysis of the deposited data

Results flagged for a closer look

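The 8 members were screened for a sample far from the others in both groups of 4, which makes 16 sets of values. In Cst7, CEBPA-first replicate D stood apart as the highest sample, at 65.0 CPM beside 50.9 to 53.2 CPM in the other CEBPA-first samples. Its gap to the next sample was 0.833 of the group's range, just past the critical value of Dixon's test. Chance alone marks about 5% of such groups. Replicate D still lay below every CSF3R-first and CSF3R-only sample, and without it the log2 fold change of Cst7 against CSF3R-only was -1.19 (edgeR adjusted p = 1.1e-06).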

How the results depend on the processing

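The choice that moved the counts of members called was the 2-fold threshold: by adjusted p alone, 8, 8 and 7 members passed in CEBPA-first against CSF3R-only, CSF3R-first against CSF3R-only and CEBPA-first against CSF3R-first, instead of 5, 2 and 0. No other setting tried moved a count by over 1.5 times. Library-size scaling without TMM moved the median of all genes by 0.13 (log2) in CEBPA-first against CSF3R-only; Mpo then reached 2-fold (1.01), Cst7 did not (-0.97), the fall of Cst7 in CSF3R-first was -0.34 (edgeR adjusted p = 0.06) and that of Ms4a3 between CEBPA-first and CSF3R-first -0.22 (adjusted p = 0.059). Between CEBPA-first and CSF3R-first, the adjusted p of Mpo also rose above 0.05 in 2 other settings. These were when every sample had to hold at least 10 counts (0.22, edgeR adjusted p = 0.059) and when only those groups were fitted (0.22, adjusted p = 0.095). That of Ms4a3 did so without a filter (-0.24, adjusted p = 0.064). The single change of direction was Ctsc in CEBPA-first against CSF3R-first when single samples were left out (lowest -0.21, without CSF3R-first replicate B; highest 0.0756, without CSF3R-first replicate A). Elane, Prtn3, Ctsg and Prss57 kept their direction and an adjusted p below 0.05 in every comparison under every alternative run. Of the ratios to Mpo, 13 of 21 passed, also with a pseudocount of 0.5. With Elane as the reference, 12 had the smallest possible p, but their adjusted p was 0.05 and 0 passed, and relative to Mpo 0 passed when any 1 sample was left out, although the 13 kept their direction; without a CSF3R-first sample the design allows no adjusted p below 0.0667.

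Replicates share letters between groups. Deviations from the group means correlated more between samples with the same letter (mean r = 0.156, above 0 in 9 of 10 pairs) than between other samples (mean r = -0.0526, above 0 in 8 of 30 pairs). Of the 10 same-letter pairs, 7 had r above 0.1, and 6 of 11 samples correlated best with a sample of their own letter. Pairing by letter is thus a hint from the data. The labels do not say what a letter stands for, so the letters were not used as pairs in the main test. With a replicate block, 5, 2 and 0 members were called, as without it, and no member gained or lost significance. The small groups, an unstated strand setting and counts from whole cultures limit these values; depth does not, since the smallest member count in a sample was 1826.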
